A study of Mus musculus with 8 samples.

Results

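The 10 genes described here encode the VEGF ligands (Vegfa, Vegfb, Vegfc, Vegfd and Pgf), the angiopoietins Angpt1 and Angpt2, the related secreted proteins Angptl2 and Angptl4, and Flt1, a receptor for VEGF-A, VEGF-B and placental growth factor. They were found by symbol among the 53465 gene identifiers of the count table, and each symbol matched 1 row. Their transcripts were compared between MSCs (mesenchymal stem cells) cultured at 2% oxygen, called hypoxia, and at 21% oxygen, called normoxia, with 4 samples in each group. The cells were grown from the bone of wild-type male C57BL/6 N mice, 3 to 5 months old, with 5% CO2 in both groups. Per the labels they were sorted on day 12 (the study sorted for Sca-1 and CD140a and against CD45 and TER-119). The study then kept part of the sorted population in hypoxia and moved the other part to normoxia for a week. How many animals went into a sample is not given, and the cells are a primary culture, not cells in the bone.

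VEGF-A drives the growth and permeability of blood vessels, and its gene is a classic target of the hypoxia-inducible factors (HIF). VEGF-C and VEGF-D act mostly on lymphatic vessels through the receptor encoded by Flt4. Angiopoietin-1 steadies vessels through the receptor TIE2, encoded by Tek, and angiopoietin-2 can oppose it. In bone, perivascular stromal cells are a known source of both VEGF-A and angiopoietin-1 for the neighbouring endothelium.

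Total counts were 12898291 to 25132141 per sample, and hypoxia replicate 1 had the most. All 8 markers of MSCs were detected, with Pdgfra at 150.5 to 226.8 CPM (counts relative to the TMM-scaled library size) and Ly6a at 349.4 to 501.4 CPM. Of these 8, Cd44 and Nt5e were called higher in normoxia by limma-trend, and with the replicate number as a block 4 were called higher and 3 lower. Over all tested genes 34.6% were called by limma-trend and 46.0% with the block, in either direction. Endothelial markers summed to 3.69 to 5.86 CPM over 10 genes, with Tie1, Emcn and Cldn5 at 0 counts in every sample and Pecam1 at 0 to 2 counts. Of 6 erythroid markers, 5 were at 0 counts. All 8 markers of macrophages and other blood cells were detected, although CD45 was used to exclude such cells. They summed to 524.9 to 1075.5 CPM in hypoxia and 619.4 to 1168.5 CPM in normoxia, of which Lyz2 alone made up 260.9 to 436.2 and 399.5 to 691.2 CPM. Lyz2 was called higher and Mrc1 lower in normoxia, the median log2 change of the 8 was -0.27, and with the block 1 was called higher and 4 lower (Mrc1, Csf1r, Itgam and Cd68). Markers of pericytes and smooth muscle (7 genes) summed to 3095.2 to 4219.4 CPM in hypoxia and 2360.8 to 2782.0 CPM in normoxia, nearly all of it Acta2 (2952.4 to 4001.4 and 2228.5 to 2594.0 CPM). Acta2 and Myh11 were called lower. With the block Cspg4 was called lower too and Rgs5 higher (log2 change 0.71, limma-trend adjusted p = 0.0041, and 0.056 without the block). The 5 adipocyte markers summed to 4.01 to 14.6 CPM in hypoxia and 5.26 to 8.82 CPM in normoxia, with Lep at 0 counts. The part of these shifts in the results below was not tested, and in these bulk samples fewer cells of a type and less RNA per cell cannot be told apart.

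Of the 10 genes, 9 passed the filter on low counts, and Angpt2 did not. With limma-trend 4 of the 9 (44.4%) had an adjusted p under 0.05, against 34.6% of all 14369 tested genes, so that the number called does not set these genes apart. In normoxia 3 rose, namely Angptl2, Angptl4 and Angpt1 (18.0% of all tested genes were called higher), and 1 fell, Vegfb (16.5% were called lower). For these same 4 genes every sample of one group lay beyond all samples of the other, which held for 32.6% of all tested genes. With the replicate number as a block 5 of the 9 (55.6%) were called, against 46.0% of all tested genes, and Vegfd joined those that were lower. With the block and a correction for GC content and transcript length together the number was again 5, against 43.2% of all. The median log2 change (normoxia minus hypoxia throughout) was -0.06 over the 9 genes and 0.0049 over all tested genes.

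**Figure D1:**
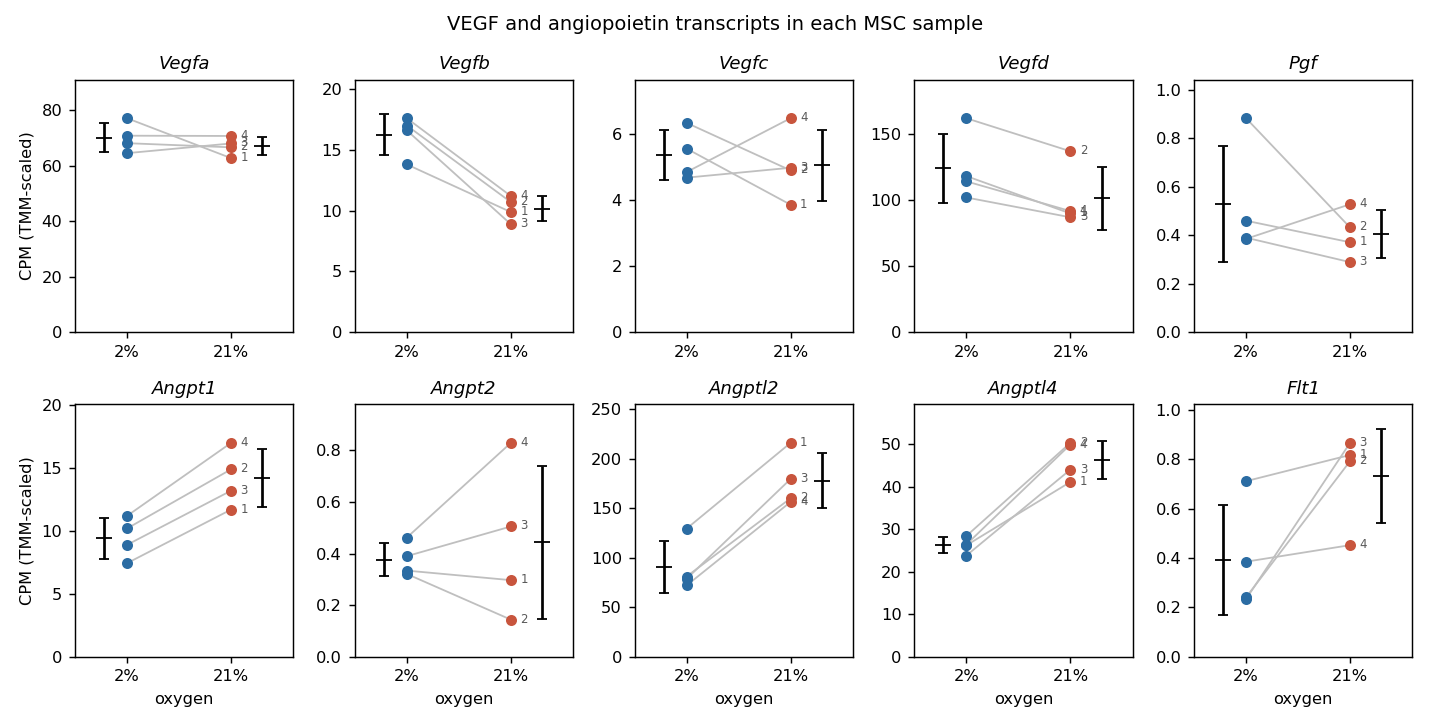
Each panel plots 1 gene in CPM, with the hypoxia samples (2% oxygen) on the left and the normoxia samples (21%) on the right. Grey lines join samples of the same replicate number, printed at the right, and black marks give the mean and SD of each group (n = 4). Angptl2, Angptl4 and Angpt1 are higher and Vegfb is lower in every normoxia sample than in any hypoxia sample, while Vegfa overlaps between the groups.

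Vegfa (ENSMUSG00000023951, chromosome 17, 46016993 to 46032369 on the minus strand of GRCm38) was at 77.2, 68.2, 64.6 and 70.9 CPM in hypoxia replicates 1 to 4. In normoxia it was at 62.8, 66.7, 68.1 and 70.8 CPM. The groups overlapped, and the highest and the lowest value both came from replicates numbered 1. The log2 change was -0.06 with a 95% interval of -0.21 to 0.08 (limma-trend adjusted p = 0.51), and with no scaling factor it was 0.025. Within pairs the differences ran from -0.30 in pair 1 to 0.08 in pair 3. The 3 genes whose log2 CPM, centred on each gene's own mean, ran closest to Vegfa over the 8 samples were Ttc9c, Safb and Wwp2, with root mean square differences of 0.031, 0.0457 and 0.0465. Among the other members this difference went from 0.181 for Vegfc to 0.590 for Angptl2.

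Vegfb encodes a ligand of FLT1 that is best known from heart and muscle (ENSMUSG00000024962, chromosome 19, 6982473 to 6987651 on the minus strand). It was at 13.8, 17.0, 16.6 and 17.6 CPM in hypoxia and at 9.88, 10.7, 8.88 and 11.2 CPM in normoxia. All normoxia samples were thus below all hypoxia samples, and hypoxia replicate 1 lay nearest to them. Vegfb fell by 0.66 ± 0.111 (SE) on the log2 scale, a 1.59-fold difference (limma-trend adjusted p = 0.00089). It was lower in 4 of 4 pairs. Its longest transcript is rich in G and C, at 62.6%. With the GC and length correction the change was -0.38 and still past the threshold (adjusted p = 0.020, and 0.0019 with the block).

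Vegfd (ENSMUSG00000031380, chromosome X, 164373378 to 164402650 on the plus strand) was at 118.2, 162.0, 102.0 and 114.2 CPM in hypoxia. In normoxia it was at 89.9, 137.0, 87.0 and 91.7 CPM. The samples numbered 2 were the highest of both groups, so that the groups overlapped although each normoxia sample was below its hypoxia partner. The pair differences were -0.39, -0.24, -0.23 and -0.32 on the log2 scale. Without pairing, the log2 change of -0.30 had a 95% interval of -0.63 to 0.04 (limma-trend adjusted p = 0.16). With the replicate block the interval was -0.41 to -0.19 (adjusted p = 7.5e-05), and with the GC and length correction added the change was -0.38 (1.4e-07). Without normoxia replicate 2 the unpaired fit gave -0.46 (adjusted p = 0.019), so that this sample decides the unpaired call and moves the change by more than 1.5 times. Without hypoxia replicate 2 it gave -0.16 (0.42).

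Neither Vegfc nor Pgf was called. Vegfc was at 4.68 to 6.34 CPM in hypoxia and 3.86 to 6.48 CPM in normoxia, and the pairs split evenly, with 2 higher and 2 lower. Its log2 change was -0.09 with a 95% interval of -0.46 to 0.27 (limma-trend adjusted p = 0.71). Pgf, which encodes placental growth factor, had 4 to 11 counts per sample. At this depth the 95% interval of its log2 change ran from -0.87 to 0.41 (adjusted p = 0.58), so that a moderate difference was not detectable.

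HIF binds DNA at a short core, ACGTG or GCGTG, and the known HIF element of Vegfa lies further upstream than the window shown here. The promoter sequences of RefSeq (GRCm38) had 9 entries for 7 of the 10 genes, and the 250 bases before each start were searched for both letter strings on both strands (CACGTG then matches on each strand). At least 1 match was found in 4 of the 9 entries, against 38.6% of all 32851 entries, 16.6% for ACGTG and 28.2% for GCGTG. The windows below are those of Vegfa, which was not called, of Vegfb, which was called lower, of Vegfd, which was called lower with the block but not in the unpaired fit, and of Angptl2, which had the largest rise of the 4 called genes. Matches are in capitals, and each sequence reads 5′ to 3′ on the strand of the gene. They lie at chr17:46032378-46032627 (minus), chr19:6987652-6987901 (minus), chrX:164373272-164373377 (plus, ending before the first annotated start) and chr2:33215711-33215960 (plus).
Vegfa: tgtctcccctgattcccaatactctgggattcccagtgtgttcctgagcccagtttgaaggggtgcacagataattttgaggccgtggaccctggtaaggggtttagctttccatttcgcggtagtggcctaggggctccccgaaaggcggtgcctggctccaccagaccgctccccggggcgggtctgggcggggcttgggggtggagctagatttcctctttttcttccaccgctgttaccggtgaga
Vegfb: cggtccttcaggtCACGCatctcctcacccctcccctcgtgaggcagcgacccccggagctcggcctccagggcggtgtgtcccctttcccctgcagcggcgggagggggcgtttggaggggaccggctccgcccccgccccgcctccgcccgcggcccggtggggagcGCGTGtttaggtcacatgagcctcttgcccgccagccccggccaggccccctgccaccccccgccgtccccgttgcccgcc
Vegfd: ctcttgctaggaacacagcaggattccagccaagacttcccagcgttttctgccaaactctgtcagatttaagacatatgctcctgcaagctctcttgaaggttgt
Angptl2: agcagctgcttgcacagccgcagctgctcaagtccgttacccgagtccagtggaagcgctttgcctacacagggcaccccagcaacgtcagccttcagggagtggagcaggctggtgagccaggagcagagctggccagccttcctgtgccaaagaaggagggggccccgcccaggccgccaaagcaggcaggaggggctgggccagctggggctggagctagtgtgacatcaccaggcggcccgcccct
In these letters Vegfb alone of the 4 had matches, with 1 on each strand, beginning 237 and 81 bases before the start. Matches also lay in entries that are not printed. A further Vegfa entry, for a start inside the gene, held 2 matches, and 1 entry each of Pgf and Flt1, neither of them called, held 1. Angpt1, Angpt2 and Angptl4 had no entry. A match is not a bound site, and the lack of one says only that these letters are not in the window.

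**Figure D2:**
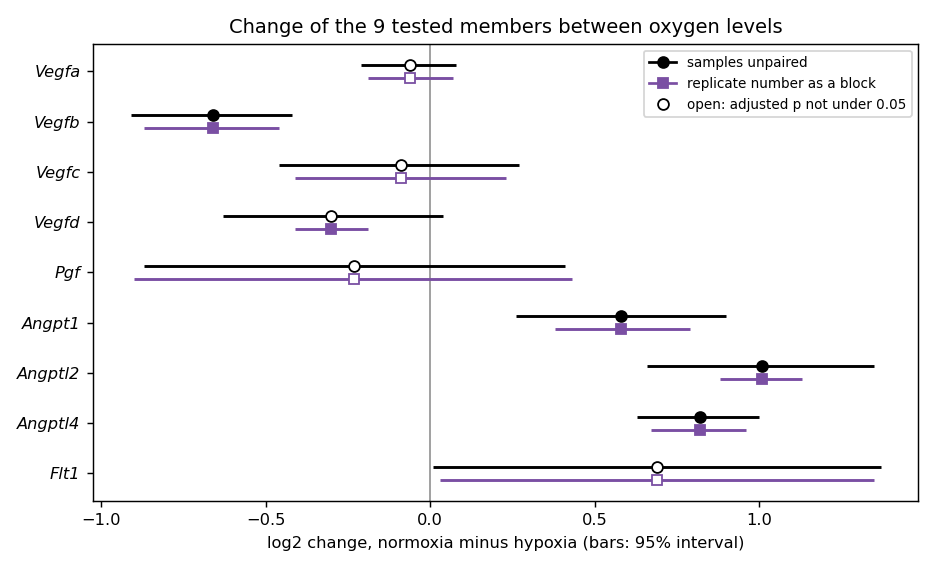
Log2 change of each of the 9 tested genes, normoxia minus hypoxia, with its 95% interval, for the unpaired fit (black circles) and the fit that blocks on replicate number (purple squares). Filled symbols have an adjusted p under 0.05. Vegfd is open at -0.30 without the block and filled with it, and the interval of Vegfa lies within -0.21 to 0.08.

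Among the angiopoietins, Angpt1 (ENSMUSG00000022309, chromosome 15, 42424723 to 42676977 on the minus strand) was at 7.44, 10.2, 8.90 and 11.2 CPM in hypoxia. In normoxia it was at 11.7, 14.9, 13.2 and 17.0 CPM. The groups did not overlap, but only a small gap parted hypoxia replicate 4 from normoxia replicate 1. The pairs were close to each other, with differences of 0.54 to 0.64. On the log2 scale Angpt1 rose by 0.58 ± 0.147 (SE; limma-trend adjusted p = 0.0093). The GC content of its longest transcript is low, at 39.3%. With the GC and length correction the change was 0.34, past the threshold with the block (adjusted p = 0.0052) but not without it (0.096). The antisense gene Gm17473 covers 14.2% of its exon bases, and had 0 counts in every sample.

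Angpt2 had too few counts to be tested, with 8, 4, 5 and 6 in hypoxia and 4, 2, 7 and 11 in normoxia. The normoxia samples lay on both sides of the hypoxia samples. It lies within the span of Mcph1, on the opposite strand, with no shared exon bases.

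The largest rise was that of Angptl2, which encodes a secreted protein tied to inflammation and matrix remodelling (ENSMUSG00000004105, chromosome 2, 33216069 to 33247717 on the plus strand). It was at 129.5, 81.1, 78.8 and 72.1 CPM in hypoxia and at 216.2, 160.2, 179.7 and 156.5 CPM in normoxia. Replicate 1 was the highest of each group, and hypoxia replicate 1 stood well above the other hypoxia samples but below every normoxia sample. Angptl2 rose 2.01-fold, or by 1.01 ± 0.160 (SE) on the log2 scale (limma-trend adjusted p = 0.00066), and the pair differences ran from 0.74 in pair 1 to 1.19 in pair 3. Without hypoxia replicate 1 the change was 1.19. Angptl2 lies within the span of Ralgps1, on the opposite strand, with no shared exon bases. Ralgps1 was at 2.42 to 4.57 CPM and was not called (log2 change -0.12, adjusted p = 0.69).

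Angptl4 encodes an inhibitor of lipoprotein lipase and is a known target of both HIF and the lipid sensors of the PPAR family (ENSMUSG00000002289, chromosome 17, 33773750 to 33781830 on the minus strand). In hypoxia it was at 26.2, 28.4, 23.8 and 26.4 CPM, and in normoxia at 41.1, 50.3, 44.0 and 49.9 CPM. The groups lay far apart for their spread, and it had the smallest adjusted p of the members in the unpaired fit, while with the block Angptl2 had the smallest (9.3e-12, against 2.2e-09 for Angptl4). Angptl4 rose 1.76-fold, or by 0.82 ± 0.0850 (SE) on the log2 scale (limma-trend adjusted p = 8.4e-05), with pair differences of 0.65 to 0.92. It was also 0.82 with the GC and length correction. Angptl4 and Vegfa, both known HIF targets, thus had intervals that did not overlap, at 0.63 to 1.00 and -0.21 to 0.08.

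Flt1 had 3 to 17 counts per sample, at 0.711, 0.241, 0.234 and 0.385 CPM in hypoxia and 0.817, 0.792, 0.866 and 0.452 CPM in normoxia. Hypoxia replicates 2 and 3 had 3 counts each, and 3 counts stand for 0.125 to 0.241 CPM. Hypoxia replicate 4 and normoxia replicate 4 had 5 and 6 counts, and the other samples had 11 to 17. Normoxia was higher in 4 of 4 pairs, by 0.15 to 1.28, but the groups overlapped. At so few counts the log2 values depend on the prior count. With a prior count of 0.5 the log2 change was 0.93 (limma-trend adjusted p = 0.11). With the prior count of 3 used throughout, the log2 change of 0.69 had a 95% interval of 0.01 to 1.37 (limma-trend adjusted p = 0.11, or 0.082 when blocked by pair). Hypoxia replicate 1 decides this call, because without it the change was 0.89 (adjusted p = 0.037). Counts per gene do not tell the membrane receptor from its soluble form, which binds VEGF as a decoy.

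To compare levels between genes, CPM were divided by the length of the merged exons. Vegfd had the highest level, at 51.5 ± 10.9 CPM per kb (SD, n = 4, as for the values that follow) under hypoxia and 42.1 ± 9.89 under normoxia. In both groups its lowest sample was above the highest sample of any other member. Vegfa was at 16.4 ± 1.25 CPM per kb in hypoxia and 15.7 ± 0.773 in normoxia. In hypoxia Angptl2 (11.5 to 20.6 CPM per kb) overlapped with Vegfa (15.1 to 18.0). In normoxia Angptl2 (24.9 to 34.4) stood above Vegfa (14.7 to 16.5). Vegfb and Angptl4 exchanged places, from 10.1 ± 1.04 and 7.40 ± 0.530 CPM per kb in hypoxia to 6.34 ± 0.643 and 13.1 ± 1.27 in normoxia, and their samples overlapped in neither group. Vegfc and Angpt1 were between 1.43 and 3.27 CPM per kb in every sample and overlapped in both groups. Pgf, Angpt2 and Flt1 had the lowest levels, none above 0.304 CPM per kb. The length used matters for the top of the order, since with the longest transcript Angptl2 (50.1 CPM per kb) and Vegfd (49.5) were level in normoxia.

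**Figure D3:**
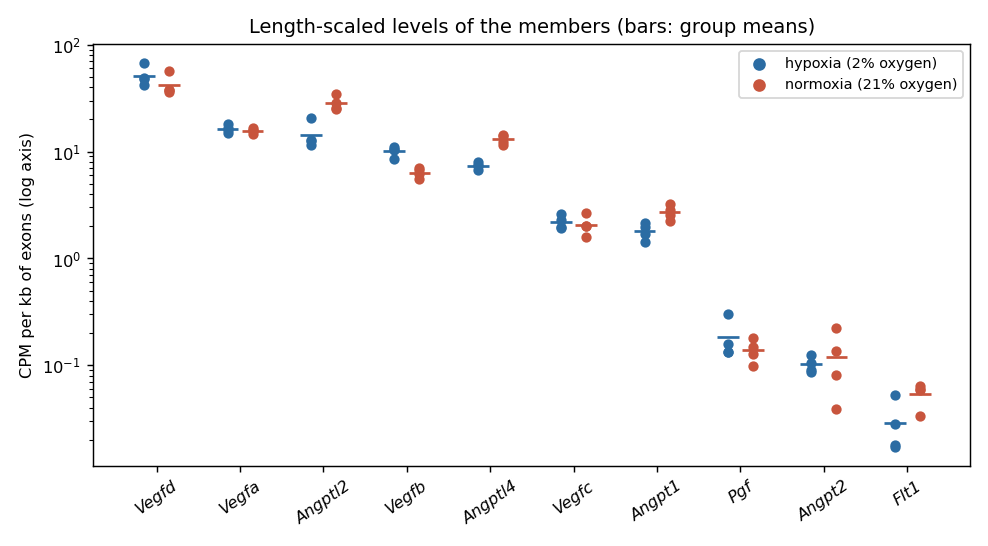
Levels of the 10 genes in CPM per kb of merged exons on a log axis, with 1 point per sample (blue, hypoxia, and red, normoxia) and bars for the group means, ordered by the mean in hypoxia. Vegfd has the highest level in both groups, and Vegfb and Angptl4 change places between them.

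The receptors and co-receptors of these ligands were then examined. Of 7 genes 5 were tested, with a median log2 change of -0.09. With or without the block 0 were called, against 46.0% and 34.6% of all tested genes. With limma-trend 0 of the 5 had an unadjusted p under 0.05, and edgeR and DESeq2 called 0 of them too. Nrp2 was called without hypoxia replicate 1 (-0.21, adjusted p = 0.049). With the block and without pair 1, Nrp2 (-0.17, 0.017) and Flt4 (0.44, 0.038) were called. The co-receptors (neuropilins) Nrp1 and Nrp2 were well expressed, at 83.2 to 110.3 and 165.1 to 253.1 CPM. Their log2 changes were 0.10 and -0.09, with 95% intervals of -0.07 to 0.27 and -0.33 to 0.14, and Nrp1 turned to -0.11 with the GC and length correction. Flt4, which encodes the main receptor of VEGF-C and VEGF-D, was at 3.85 to 6.98 CPM and changed by 0.18 (-0.25 to 0.60). Kdr, which encodes the main signalling receptor of VEGF-A, had 1 to 10 counts, and Tek had 13 to 33. The endothelial receptors Tie1 and Ptprb had 0 counts and at most 2 counts.

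Of 6 other genes of the angiopoietin and angiopoietin-like families 3 were tested, and they went in different directions. Angptl6 was at 4.64 to 6.42 CPM in hypoxia and 1.73 to 2.97 CPM in normoxia, and fell by 1.12 on the log2 scale (limma-trend adjusted p = 0.00082). It shares 16.8% of its exon bases with A230050P20Rik on the opposite strand, which was lower in 4 of 4 pairs with the groups overlapping (log2 change -0.67, adjusted p = 0.081, or 0.0062 when blocked by pair). Without knowledge of strand, reads over the shared bases cannot be assigned to either gene. Angptl7 was at 237.2, 66.4, 71.6 and 62.9 CPM in hypoxia and 403.6, 172.3, 169.6 and 148.4 CPM in normoxia. Both samples numbered 1 stood far above the others of their group, and the groups overlapped through hypoxia replicate 1. Within pairs Angptl7 was higher by 0.77 to 1.37. Its log2 change of 1.15 passed the threshold (adjusted p = 0.041, and 5.8e-12 with the block), but not with edgeR (0.091), DESeq2 (0.17), limma-voom (0.051) or no filter (0.054), nor, with limma-trend, without hypoxia replicate 2, 3 or 4 or normoxia replicate 1, 2 or 3 (0.057 to 0.12). Angptl7 lies within the span of Mtor on the opposite strand, with no shared exon bases, and Mtor was called higher by 0.41. Angpt4, which encodes a further angiopoietin, was at 17.0 to 29.4 CPM in hypoxia and 17.6 to 24.4 CPM in normoxia. It changed by -0.01, with a 95% interval of -0.35 to 0.32.

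Of 7 genes for partners of the angiopoietin-like proteins 6 were tested, with a median log2 change of 0.27. In the unpaired fit 2 were called higher and 1 lower (18.0% and 16.5% of all tested genes). With the block the numbers were 3 and 1, against 46.0% of all tested genes called in either direction. The integrin chain gene Itgb1 rose by 0.44 (limma-trend adjusted p = 0.0010) and the proteoglycan gene Sdc4 by 0.51 (0.0044). Itgav, another integrin chain gene, changed by -0.32 (0.0021). With the GC and length correction these changes were 0.28 for Itgb1, 0.50 for Sdc4 and -0.50 for Itgav, all still called. Lpl, the lipase that ANGPTL4 inhibits, was at 22.8, 53.1, 50.2 and 43.7 CPM in hypoxia and 39.7, 59.4, 97.4 and 81.2 CPM in normoxia. It was higher in 4 of 4 pairs, and its log2 change of 0.70 was called with the block (adjusted p = 7.7e-07) but not without it (0.075).

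Other secreted factors that act on vessels changed in both directions. Of 24 genes 22 were tested, with 8 called higher and 2 lower (18.0% and 16.5% of all tested genes) and a median log2 change of 0.11. With the block 10 were called higher and 5 lower, against 46.0% of all tested genes called in either direction. Hgf and Pdgfb joined those that were higher, and Cxcl12, Ptn and Edn1 those that were lower. With the GC and length correction added the numbers were 10 and 6, against 43.2% of all, but the genes were not the same. Hgf was then not called (0.13, limma-trend adjusted p = 0.19), Gas6 was called higher (0.23, 7.8e-05) and Nrg1 lower (-0.19, 0.044). Of the 8 called higher in the unpaired fit, Fgf2, Pdgfc and Efnb2 lost their calls in 2 or more of the alternatives. Of those that rose, Ccn2 and Ccn1, which encode matricellular proteins, had log2 changes of 1.04 and 0.54. Pdgfa, which encodes a platelet-derived growth factor chain, and Hbegf, a ligand of the EGF receptor, had 0.39 and 0.88 (limma-trend adjusted p of 0.0011 to 0.0085 for these 4 genes). The 2 that fell were Mdk, which encodes the heparin-binding growth factor midkine, and Apln, which encodes the peptide apelin. Mdk was at 9.70 to 14.4 CPM in hypoxia and 3.94 to 6.42 CPM in normoxia, a log2 change of -1.35 (adjusted p = 0.00018). Apln changed by -0.81 (0.0020). Adm, which encodes the vasodilator adrenomedullin, changed by -0.08 with a 95% interval of -0.30 to 0.14.

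Of 17 genes for inhibitors of vessel growth 16 were tested, with 5 called higher and 3 lower (18.0% and 16.5% of all tested genes) and a median log2 change of -0.04. With the block 5 were called higher and 6 lower, as Serpinf1, Sema3a and Sema3b were added. With the GC and length correction as well the numbers were 6 and 4. Over all tested genes these fits called 46.0% and 43.2% in either direction. The direction with more calls thus differed between the fits, through which genes passed the threshold. The sign of the log2 change was the same in all of them for each tested gene of this list. Sema3e, which encodes a repelling guidance factor, rose by 1.13 (limma-trend adjusted p = 0.00070), and Timp3, an inhibitor of metalloproteinases, by 0.36 (0.0036). Sema3c rose by 0.34 (0.010) and the matrix proteoglycan gene Dcn by 0.35 (0.018). Sema3f, which encodes a semaphorin that binds neuropilin-2, changed by -0.68 (0.00015), Col18a1, the source of endostatin, by -0.77 (0.0017), and Cnmd, which encodes chondromodulin, by -0.98 (0.021). Without hypoxia replicate 4 or normoxia replicate 2 neither Dcn nor Cnmd was called (adjusted p of 0.052 to 0.073), and Dcn was not called without normoxia replicate 3 either (0.052). DESeq2 did not call Cnmd (0.056). With the GC and length correction and no block, Sema3c and Dcn were not called, at log2 changes of 0.14 (adjusted p = 0.17) and 0.10 (0.43).

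**Figure D4:**
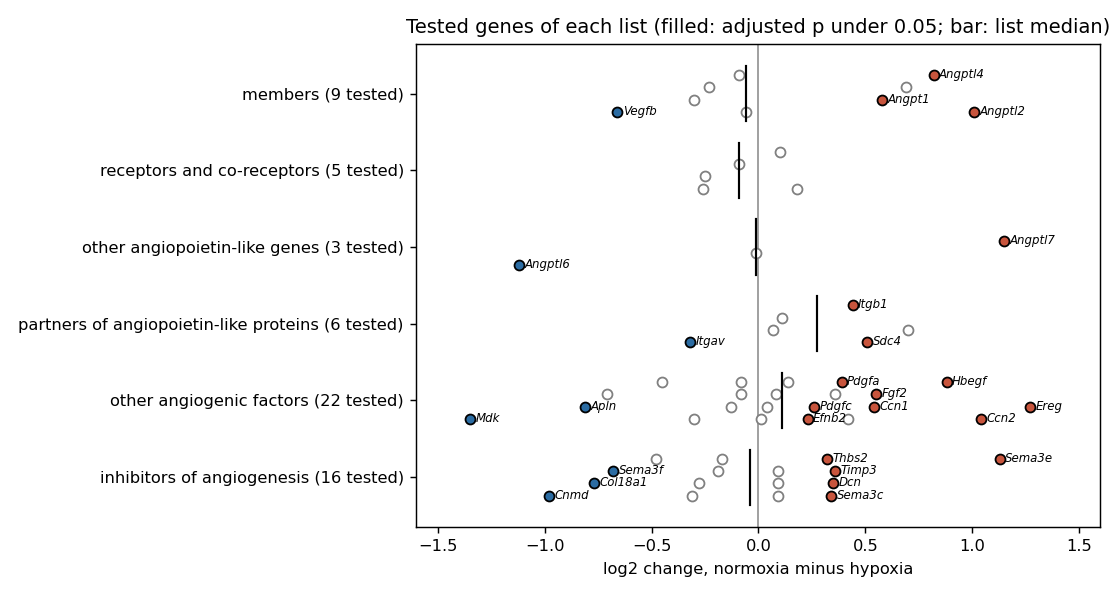
Log2 change, normoxia minus hypoxia, of each tested gene of the members and the 5 related lists. The list of other angiopoietin-like genes includes the angiopoietin gene Angpt4. Filled and named points have an adjusted p under 0.05 (red, higher in normoxia, and blue, lower), open points do not, and bars mark list medians, which lie between -0.09 and 0.27.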

How the data were processed

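RNA-seq was done on 8 cultures of mouse MSCs, 4 at 2% oxygen and 4 at 21% oxygen, grouped by the titles and oxygen levels in the labels. The authors mapped single-end reads to mm10 with STAR inside zUMIs, counted them per Ensembl gene with featureCounts, and deposited raw counts for 53465 identifiers. Whether counting used strand or introns is not given in the sources used here. NEBNext Ultra II libraries were sequenced at 12898291 to 25132141 counts per sample. At that depth 3 counts equal 0.125 to 0.241 CPM, a floor that covers counting error only.

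Following the methods of the study, filterByExpr with a minimum count of 5 kept 14369 genes, and limma-trend (limma 3.58.1, edgeR 4.0.16, R 4.3.3) compared log2 CPM. TMM scaling and a prior count of 3 were chosen here, because the study names neither. P-values were two-sided and adjusted by Benjamini-Hochberg over all tested genes, with a threshold of 0.05. Symbols, positions and exon lengths came from GENCODE M21, on the same assembly.

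The study divided its sorted population between the oxygen levels, and the same replicate numbers occur in both groups. The labels do not say that samples of the same number came from one sort. Deviations of same-numbered samples from their group means correlated across genes at 0.474, 0.275, 0.249 and 0.172. On these grounds the numbers were taken as pairs, and every result with the block or within pairs rests on that reading. A fit that blocks on replicate number stands beside the unpaired fit where it changes the call of a member or the counts of a list.

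Alternatives were the edgeR quasi-likelihood test, DESeq2 1.42.0, limma-voom, other scalings, filters and prior counts, each sample left out, and a spline on GC content and transcript length (5 degrees of freedom each). That spline without the block, and the fit without pair 1, were chosen after the data were seen. The members and gene lists were chosen with earlier results of these data known. The genes named are all members, up to 4 called genes per direction in each list (every tested gene in lists of 5 or fewer), the 3 genes nearest to Vegfa, and genes that overlap a member. Other genes in the text, such as Lpl and Adm, were picked with their values in view.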

Additional observations from a re-analysis of the deposited data

Results flagged for a closer look

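The log2 CPM values of the 9 tested genes, in 2 groups of 4 samples each, made 18 sets. A value was picked out where its distance to the next value, as a share of the whole range of its set, passed the 95% limit of Dixon's test. That happened in 2 sets, where chance gives about 1 in 20, or 0.9.

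Vegfd in normoxia replicate 2 was at 7.10 log2 CPM, against 6.45 to 6.52 in the other normoxia samples, with a ratio of 0.883. Hypoxia replicate 2 was also the highest hypoxia sample for this gene. Flt1 in normoxia replicate 4 was at -0.60 log2 CPM, against 0.00 to 0.10 in the other normoxia samples, with a ratio of 0.854, from 6 counts.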

How the results depend on the processing

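The calls of Vegfb, Angptl2 and Angptl4 were kept in the 21 alternatives run, with log2 changes of -0.74 to -0.38, 0.90 to 1.19 and 0.76 to 0.90. Angpt1 was called in 20 of 21, the exception being the GC and length correction without the replicate block. Vegfd was called in the 3 fits with the replicate block and without normoxia replicate 2, and Flt1 without hypoxia replicate 1. The block changed no other call of a member. Vegfa turned to 0.025 with no scaling factor and to 0.007 with the replicate block and without pair 1. Vegfc turned to 0.036 in that last fit and ranged from -0.23 to 0.010 with 1 sample left out. Neither was called in any alternative. Over the 5 pathway lists 23 genes were called, against 32 in the replicate block fit and 36 once pair 1 was also removed. Over all tested genes the same fits called 4970, 6610 and 6107. The cause was not tested. Leaving out 1 sample gave 16 to 28 genes of the lists, and 3838 to 5423 over all tested genes. Taking the longest transcript in place of merged exons moved 11 of 20 group means of length-scaled levels by more than 1 SD. Depth limits Pgf, Angpt2 and Flt1, which had 2 to 17 counts per sample. DESeq2 gave no adjusted p for Pgf, and a minimum count of 10 removed Pgf and Flt1.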
